A study of Mus musculus with 2 samples.

Results

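Coagulation and fibrinolysis genes were followed through the cells of injured mouse carotid arteries. They are 9 of the 32285 genes in the count tables, chosen by symbol: Procr, Thbd and Tfpi, which restrain clotting, F3, F7 and F10, which start it, and Plat, Plau and Plaur, which serve the removal of fibrin. All 9 symbols were found, each on a single gene identifier. Their messenger RNA was counted at its 3′ end with unique molecular identifiers (UMIs) in single cells of 2 libraries, 1 per genotype. The library labelled EC-Cx43-KO, called KO-labelled below, came from CDH5 Cre+ Cx43fl/fl mice, in which a Cre under the endothelial Cdh5 promoter, inducible according to the study's design text, acts on a floxed connexin 43 gene. The control library came from CDH5 Cre- Cx43fl/fl mice, which carry the same floxed gene without the Cre. In both groups carotids were taken 18 hours after a temporary ligation that injures the endothelium. The vessels were opened and digested briefly to favour endothelial cells, cells of a genotype were pooled, red cells were lysed, and the suspension was frozen in DMSO. Since each genotype is a single pooled library, no ratio between genotypes has a replicate behind it and none was tested. A range in parentheses after a level, share or ratio is its exact 95% interval and covers counting error only.

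Clotting after vessel injury begins when tissue factor, the product of F3, meets factor VII in the blood and activates factor X, which leads to thrombin and fibrin. Intact endothelium opposes this with thrombomodulin (Thbd), which turns thrombin into an activator of protein C, with the endothelial protein C receptor (Procr), which presents protein C to that complex, and with tissue factor pathway inhibitor (Tfpi). Fibrin is later dissolved by plasmin, which tissue-type (Plat) and urokinase-type (Plau) plasminogen activators make from plasminogen. Plaur encodes the cell surface receptor of urokinase.

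The KO-labelled library held 8315 barcodes and 54392831 UMIs, and the control library 7298 barcodes and 48862850 UMIs, with 17 barcode sequences shared. Filtering kept 7236 KO-labelled and 6376 control cells, which were clustered without the 9 genes and named from cell type markers. The named classes with at least 100 cells per library were endothelial cell (EC)-like with 580 KO-labelled and 478 control cells, smooth muscle cell (SMC)-like with 547 KO-labelled and 409 control, fibroblast-like with 1609 KO-labelled and 1398 control, and monocyte/macrophage-like with 1926 KO-labelled and 1637 control cells. Neutrophil-like cells numbered 782 in the KO-labelled and 720 in the control library, dendritic-like cells 145 KO-labelled and 147 control, T/NK-like cells 203 KO-labelled and 141 control, and B-cell-like cells 170 KO-labelled and 103 control. Levels are given as CPM, a gene's UMIs scaled to a fixed total of the class's UMIs. All 14 EC markers were detected in EC-like cells of both libraries and summed to 9633 CPM in KO-labelled and 9705 CPM in control cells. In the same cells monocyte/macrophage markers (15 of 15 detected) summed to 1876 CPM in KO-labelled and 1500 CPM in control cells, and fibroblast markers (10 of 10) to 986 CPM in KO-labelled and 1129 CPM in control cells. Erythroid markers summed to 1479 CPM in KO-labelled cells (6 of 6) and 606 CPM in control cells (5 of 6). Gja1, the target of the Cre, had 156 UMIs or 36.5 CPM in KO-labelled EC-like cells and 91 UMIs or 22.5 CPM in control ones, a log2 ratio of 0.70 (0.32 to 1.09), so it was not lower in the library labelled knockout. Tags come from the 3′ end, and the sources used here do not say which part of Gja1 was removed, so these counts are no check of the labels. The direction of each ratio between libraries rests on those labels.

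The 9 genes lie on 5 chromosomes, and none overlaps another gene in the GENCODE annotation of GRCm38 (mm10). Procr (ENSMUSG00000027611), with 4 exons, is on the plus strand of chromosome 2 from 155751117 to 155755471. Thbd (ENSMUSG00000074743), with a single exon, is on the minus strand of chromosome 2 from 148404466 to 148408188. Tfpi (ENSMUSG00000027082) is on the same strand of that chromosome from 84432855 to 84476775. F3 (ENSMUSG00000028128) is on the plus strand of chromosome 3 from 121723537 to 121735048. F7 (ENSMUSG00000031443) and F10 (ENSMUSG00000031444) are neighbours on the plus strand of chromosome 8, from 13026034 to 13035809 and from 13037308 to 13056676, with 1498 bases between them. Plat (ENSMUSG00000031538) is on the plus strand of chromosome 8 from 22757727 to 22782844. Plau (ENSMUSG00000021822) is on chromosome 14 from 20836660 to 20843385 and Plaur (ENSMUSG00000046223) on chromosome 7 from 24462484 to 24475968, both on the plus strand. A UMI stands for 1 molecule whatever its length, so CPM values were not divided by gene length.

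Promoter sequences were taken from RefSeq (GRCm38.p6), which matched 6 of the 9 genes; Plat, Plau and Thbd were not among them. The 250 bases before the RefSeq start are shown for Procr, highest in EC-like cells, for Plaur, highest in neutrophil-like cells, and for F3. These are the matched members whose window holds the AP-1 motif (TGANTCA). Capitals mark matches on either strand to that motif, the GC box (GGGCGG), the TATA box (TATAAA) and the PU.1 core (GAGGAA). The Procr window is chr2:155750967-155751216, that of Plaur chr7:24462233-24462482 and that of F3 chr3:121723287-121723536, all on the plus strand.
Procr: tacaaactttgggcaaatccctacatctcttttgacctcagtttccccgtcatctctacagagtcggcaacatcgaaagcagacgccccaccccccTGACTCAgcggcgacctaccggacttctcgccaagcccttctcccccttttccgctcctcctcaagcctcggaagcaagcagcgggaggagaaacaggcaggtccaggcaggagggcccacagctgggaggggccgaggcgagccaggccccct
Plaur: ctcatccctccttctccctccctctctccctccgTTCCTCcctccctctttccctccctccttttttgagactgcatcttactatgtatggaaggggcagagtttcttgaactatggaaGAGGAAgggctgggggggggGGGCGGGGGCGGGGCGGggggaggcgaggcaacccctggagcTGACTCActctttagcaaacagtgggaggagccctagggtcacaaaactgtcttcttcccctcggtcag
F3: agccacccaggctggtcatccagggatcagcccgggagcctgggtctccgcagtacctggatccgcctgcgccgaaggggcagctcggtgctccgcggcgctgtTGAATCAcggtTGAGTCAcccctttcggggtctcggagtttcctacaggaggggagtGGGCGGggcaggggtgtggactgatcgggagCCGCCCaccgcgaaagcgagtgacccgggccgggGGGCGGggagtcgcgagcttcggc
Counted from the RefSeq start, the AP-1 match begins at position -154 in Procr and -69 in Plaur, and F3 holds a pair at -146 and -135. Plaur holds 3 GC boxes, adjacent to each other at -111, -105 and -100 with the last 2 overlapping, F3 holds 3 spread from -89 to -24, and Procr holds 0. Of 32851 RefSeq promoter windows of this length, 6.75% hold the AP-1 motif, 32.7% the GC box, 12.4% the TATA box and 23.3% the PU.1 core. A match is a string of letters, and binding was not measured here.

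Across cell classes the genes had different leading classes, and each had the same leading named class in both libraries. Procr was highest in EC-like cells. Thbd, Tfpi, F3 and Plat were highest in fibroblast-like cells, F7 and F10 in monocyte/macrophage-like cells, Plaur in neutrophil-like cells and Plau, at low counts, in dendritic-like cells. F3, F7 and F10, which start clotting, were in EC-like cells at or below the level that free RNA from broken cells would give, as estimated from the markers of other classes, while Procr, Thbd, Plat and Plaur were well above it.

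**Figure D1:**
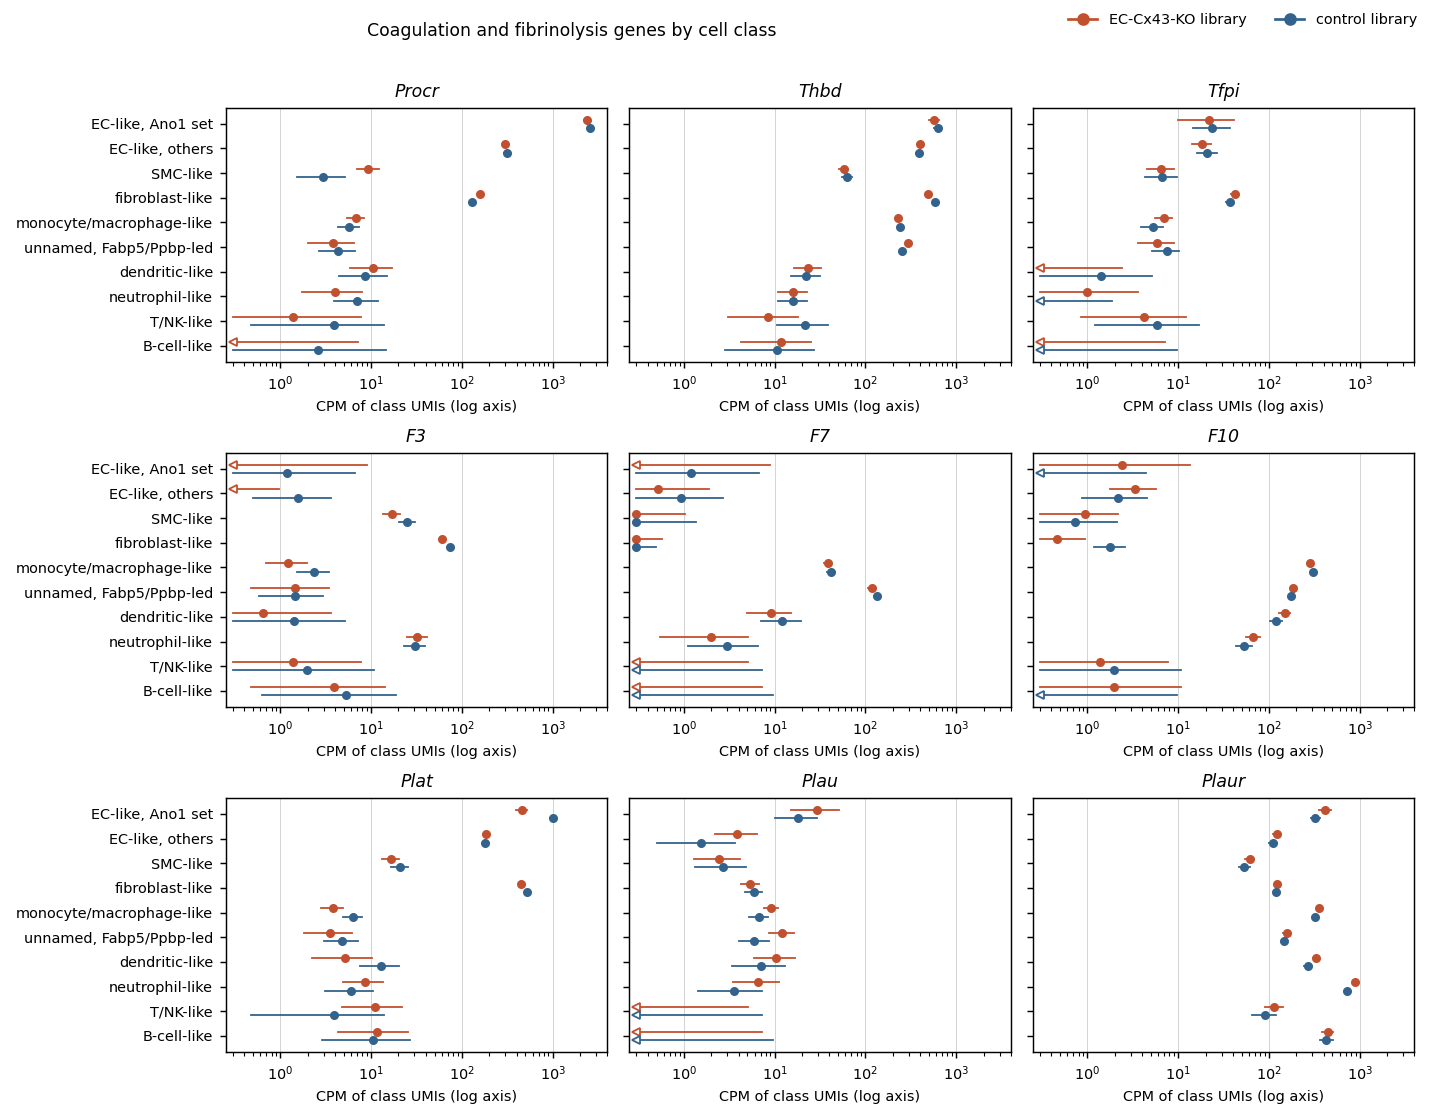
Level of each of the 9 genes by cell class, in CPM of the class's UMIs on a log axis, for the KO-labelled and the control library, with lines for exact 95% Poisson intervals and open arrows at the left edge for 0 UMIs. EC-like cells are also split by detection of at least 3 of Ano1, Tmem171, Ch25h, Pla2r1 and Hbegf. Procr reached 2382 CPM in KO-labelled and 2551 CPM in control cells in the cells that pass the split, and F7 and F10 had their levels in myeloid classes.

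Procr, the protein C receptor, was the member most tied to EC-like cells. It had 2132 UMIs or 499 CPM (478 to 521) in KO-labelled EC-like cells and 3143 UMIs or 776 CPM (749 to 804) in control EC-like cells. Fibroblast-like cells came next at 159 CPM (153 to 166) in KO-labelled and 128 CPM (122 to 134) in control cells, and no other named class of at least 100 cells per library passed 10.4 CPM. The EC-like and fibroblast-like intervals lie far apart in both libraries. After each cell was thinned to 1000 UMIs, 21.1% of 520 KO-labelled and 25.9% of 425 control EC-like cells held a Procr UMI, with 60 KO-labelled and 53 control cells left out as shallower. Unthinned, the share was 56.0% in KO-labelled and 61.3% in control cells. Neutrophil-like cells, taken as cells that should lack Procr, stood at 0.419% in the KO-labelled and 0.149% in the control library after thinning. Their median depth was 2408 UMIs in KO-labelled and 2642 UMIs in control cells, against 6016 UMIs in KO-labelled and 6324 UMIs in control EC-like cells. In the fibroblast-like cluster led by Ptx3 and Ccl11 Procr was at 256 CPM in KO-labelled and 205 CPM in control cells. In that led by Smoc2 and Dio2 it was at 20.8 CPM in KO-labelled and 15.9 CPM in control cells.

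Thbd, which encodes thrombomodulin, was spread over more cell types. It had 490.4 CPM (479 to 502) in KO-labelled and 585 CPM (573 to 598) in control fibroblast-like cells. EC-like cells followed with 418 CPM (399 to 438) in KO-labelled and 436 CPM (415 to 456) in control cells, and monocyte/macrophage-like cells with 228 CPM (220.4 to 237) in KO-labelled and 238 CPM (229 to 248) in control cells. By share of thinned cells the first pair changed places in both libraries, with 29.0% of EC-like against 28.5% of fibroblast-like cells in the KO-labelled library and 29.6% against 27.98% in the control library. The fibroblast-like cluster led by Tnfrsf11b, Esm1 and Inhba held the most Thbd, 1058 CPM in KO-labelled and 1271 CPM in control cells. In the macrophage cluster led by Lyve1 and Cd163, which had 250 KO-labelled and 90 control cells, Thbd stood at 489 CPM in KO-labelled and 343 CPM in control cells.

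Tfpi, whose product blocks the tissue factor complex together with factor Xa, was low throughout. Fibroblast-like cells had 41.8 CPM (38.6 to 45.1) in the KO-labelled and 37.0 CPM (33.9 to 40.3) in the control library, and EC-like cells 18.5 CPM (14.6 to 23.1) in KO-labelled and 21.5 CPM (17.2 to 26.5) in control cells. The remaining named classes of at least 100 cells per library were at or below 6.92 CPM, and their intervals overlap in part. Within the monocyte/macrophage-like class the Lyve1 and Cd163 cluster stood higher, at 38.0 CPM in KO-labelled and 29.4 CPM in control cells from 50 KO-labelled and 15 control UMIs.

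F3, the tissue factor gene, was found in cells of the vessel wall and in neutrophil-like cells. It stood at 60.0 CPM (56.2 to 64.0) in KO-labelled and 74.8 CPM (70.5 to 79.4) in control fibroblast-like cells. Neutrophil-like cells had 32.0 CPM (24.6 to 40.8) in KO-labelled and 30.2 CPM (23.1 to 38.9) in control cells, and SMC-like cells 16.8 CPM (13.5 to 20.6) in KO-labelled and 24.9 CPM (20.3 to 30.2) in control cells, so that the intervals of these classes meet in the control library only. In EC-like cells F3 had 0 UMIs in the KO-labelled library, which allows a level of up to 0.702 CPM by a limit of 3 counts, and 6 UMIs or 1.48 CPM (0.544 to 3.22) in the control library. By the markers of other classes, a median of 7.32% of the profile of the KO-labelled and 7.01% of that of the control library was found in a class. Free RNA at that median share would give F3 at 1.76 CPM in the KO-labelled and 2.02 CPM in the control library. Over 38 pairs of marker list and class the share ran from 1.65% to 152% in the KO-labelled library. In the control library it ran from 1.715% to 184%, so the estimate is rough. Fibroblast-like clusters differed among themselves. The Smoc2 and Dio2 cluster had F3 at 104 CPM in KO-labelled and 142 CPM in control cells, and the Ptx3 and Ccl11 cluster at 33.5 CPM in KO-labelled and 37.6 CPM in control cells. So did the SMC-like clusters, with 29.1 CPM in KO-labelled and 40.9 CPM in control cells in that led by Sost and Ccn3, against 7.27 CPM in KO-labelled and 7.62 CPM in control cells in that led by Hspb7 and Tagln.

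F7 and F10, the clotting factor genes that lie side by side, were both myeloid in these cells; the factors VII and X of plasma come from the liver. F10 had 285 CPM (276 to 294) in KO-labelled and 307 CPM (297 to 318) in control monocyte/macrophage-like cells. An unnamed cluster led by Fabp5 and Ppbp, in which all 15 monocyte/macrophage markers were detected but which also has the platelet genes Ppbp and Pf4 among its leading genes, was next at 185 CPM (171 to 200.3) in KO-labelled and 177 CPM (165 to 189) in control cells. Dendritic-like cells held 148 CPM (129.8 to 169) in KO-labelled and 120.5 CPM (103 to 140.1) in control cells, and neutrophil-like cells 66.9 CPM in KO-labelled and 53.4 CPM in control cells. F7 was lower and had another order. It was highest in the Fabp5 and Ppbp cluster, at 118 CPM (106 to 129.6) in KO-labelled and 134 CPM (124 to 145) in control cells, against 38.6 CPM (35.4 to 42.1) in KO-labelled and 41.8 CPM (38.0 to 45.8) in control cells in the monocyte/macrophage-like class. The Ccl24 and Spp1 cluster, which has F10 among its leading genes, had F10 at 494 CPM in KO-labelled and 446 CPM in control cells and F7 at 75.0 CPM in KO-labelled and 83.1 CPM in control cells. The Lyve1 and Cd163 macrophages had hardly any, with 4 KO-labelled and 1 control UMIs of F10 and 2 KO-labelled and 1 control UMIs of F7. EC-like cells had F10 at 3.28 CPM in KO-labelled and 1.73 CPM in control cells, below the free RNA estimate of 8.37 CPM in the KO-labelled and 8.22 CPM in the control library. They had F7 at 0.468 CPM in KO-labelled and 0.988 CPM in control cells, below the estimate of 1.64 CPM in the KO-labelled and 2.05 CPM in the control library.

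The 250 bases before the RefSeq starts of this neighbouring pair are shown because both genes were highest in myeloid cells. The F7 window is chr8:13025784-13026033 and the F10 window chr8:13037058-13037307, both on the plus strand, with capitals for the same motifs as above.
F7: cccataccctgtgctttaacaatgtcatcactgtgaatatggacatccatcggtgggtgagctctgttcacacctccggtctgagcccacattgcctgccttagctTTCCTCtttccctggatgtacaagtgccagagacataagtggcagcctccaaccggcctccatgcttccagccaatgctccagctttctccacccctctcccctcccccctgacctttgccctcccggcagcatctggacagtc
F10: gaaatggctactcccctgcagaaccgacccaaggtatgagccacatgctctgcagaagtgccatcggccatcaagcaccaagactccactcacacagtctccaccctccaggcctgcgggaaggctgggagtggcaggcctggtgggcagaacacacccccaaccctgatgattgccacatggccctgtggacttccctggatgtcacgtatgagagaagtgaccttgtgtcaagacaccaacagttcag
F7 holds a PU.1 core at position -144. F10 holds no match to any of the motifs above, nor to the CRE (TGACGTCA, in 1.55% of all windows), the E-box (CACGTG, 6.02%) or the C/EBP motif (TTGCNNAA, 9.56%).

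Plat, the tissue-type plasminogen activator gene, was highest in fibroblast-like cells and next in EC-like cells. It reached 449 CPM (439 to 460.0) in KO-labelled and 521 CPM (509 to 533) in control fibroblast-like cells. EC-like cells had 211 CPM (197 to 225) in KO-labelled and 354 CPM (336 to 373) in control cells, and SMC-like cells 16.6 CPM (13.3 to 20.4) in KO-labelled and 20.8 CPM (16.6 to 25.7) in control cells. None of these intervals meets the next within a library. Of the fibroblast-like clusters that led by Ptx3 and Ccl11 was highest for Plat, at 602 CPM in KO-labelled and 707 CPM in control cells. The free RNA estimate for Plat was 11.5 CPM in the KO-labelled and 14.0 CPM in the control library, above its 3.76 CPM in KO-labelled and 6.34 CPM in control cells in monocyte/macrophage-like cells.

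Plau, the urokinase gene, was scarce. All kept cells together held 320 KO-labelled and 243 control UMIs. Dendritic-like cells led the named classes with 10.4 CPM (5.93 to 16.8) in KO-labelled and 7.13 CPM (3.42 to 13.1) in control cells, but their intervals overlap those of monocyte/macrophage-like cells at 9.10 CPM (7.55 to 10.9) in KO-labelled and 6.71 CPM (5.25 to 8.45) in control cells, which led under several other settings. The Lyve1 and Cd163 macrophages, which had hardly any F7 or F10, had more Plau than any other macrophage cluster, 24.3 CPM in KO-labelled and 27.4 CPM in control cells from 32 KO-labelled and 14 control UMIs.

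Plaur, the urokinase receptor gene, was detected in every class. Neutrophil-like cells had 889 CPM (848 to 932) in the KO-labelled and 719 CPM (682 to 757) in the control library. B-cell-like cells were next with 442 CPM (386 to 503) in KO-labelled and 429.9 CPM (367 to 501) in control cells, then monocyte/macrophage-like cells with 358 CPM (348 to 369) in KO-labelled and 319 CPM (308 to 329.8) in control cells, and dendritic-like cells with 329.9 CPM (302 to 359.8) in KO-labelled and 269.5 CPM (243 to 298) in control cells. EC-like cells had 149.6 CPM (138 to 162) in KO-labelled and 155 CPM (143 to 167) in control cells, and of the named classes of at least 100 cells SMC-like cells were lowest with 61.4 CPM in KO-labelled and 53.5 CPM in control cells. Neutrophil-like cells lie apart from all these classes in both libraries, and the monocyte/macrophage-like and dendritic-like intervals meet in the KO-labelled library.

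**Figure D2:**
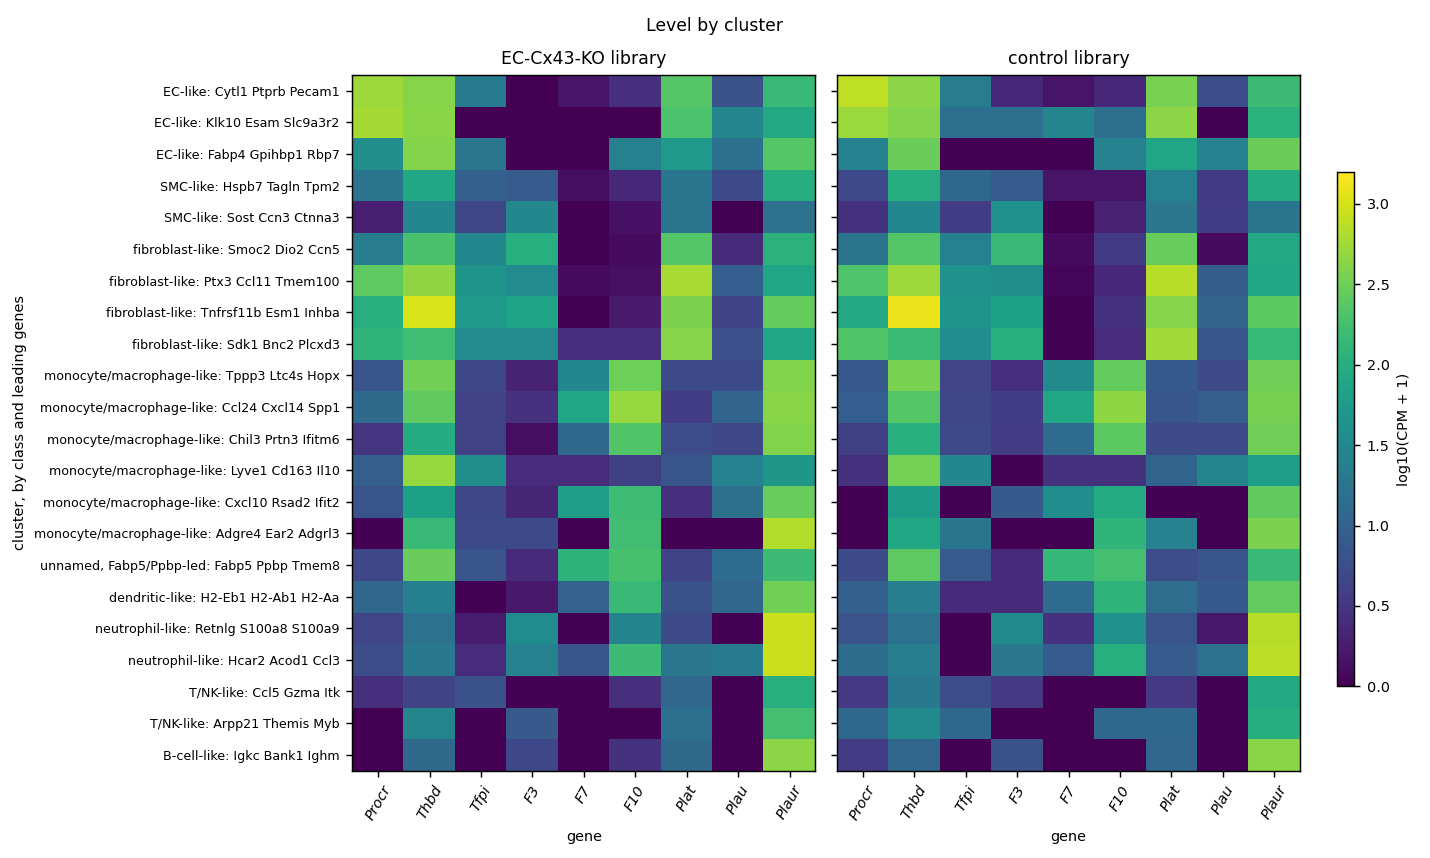
Level of the 9 genes by cluster, as log10(CPM + 1) in colour, with the KO-labelled library in the left panel and the control library in the right one; rows are clusters with their class and leading genes. F7 and F10 are high in myeloid clusters, Thbd peaks in the Tnfrsf11b and Esm1 fibroblasts at 1058 CPM in KO-labelled and 1271 CPM in control cells, and the Lyve1 and Cd163 macrophages hold Thbd at 489 CPM in KO-labelled and 343 CPM in control cells with 4 KO-labelled and 1 control UMIs of F10.

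Genes with the most similar pattern were found by Pearson's r of log2(CPM + 1) over 22 class and library points, among 14246 genes with at least 100 UMIs. The points share libraries and differ in depth, so r is a description only. Plat was most like Efemp1 (r = 0.94), Pax9 (0.93) and Cxcl12 (0.92), and Procr most like Dkk2 (0.95), Gm40323 (0.91) and Doc2b (0.91). F10 was closest to Lyz2 (0.95), Ptger2 (0.93) and Cd300c2 (0.92), and F7 to Psap (0.98), Gdf3 (0.97) and Gm32089 (0.97). Plau was most like Anxa2 (0.95), Eloc (0.91) and Tuba1c (0.91), and Tfpi most like Chst14 (0.93), Cryz (0.93) and Rab13 (0.91). Lower values were reached by Thbd with Gaa (0.89), by F3 with Dok6 (0.89) and by Plaur with Dclre1b (0.87). Among the members themselves Plat and Procr had the highest r, 0.90, followed by Thbd and Tfpi with 0.82 and F7 and F10 with 0.80.

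The comparison between libraries in EC-like cells addresses the cells in which the Cre is designed to act. Of the 5 members with at least 100 UMIs there, 2 were lower in the KO-labelled library by 1.5-fold or more, Plat and Procr, and 0 were higher; over all 8336 genes with as many UMIs, 1.96% were lower by that size and 1.73% higher. Plat had 901 UMIs in KO-labelled and 1433 UMIs in control cells, a log2 ratio of -0.75 (-0.87 to -0.62). Procr had 2132 UMIs in KO-labelled and 3143 UMIs in control cells, a log2 ratio of -0.64 (-0.72 to -0.56). The other members lay within 1.5-fold, Thbd at -0.06 (-0.15 to 0.04), Plaur at -0.05 (-0.21 to 0.11) and Tfpi at -0.22 (-0.67 to 0.24). The median of the 5 was -0.22, against -0.06 over all genes. Plau (27 KO-labelled and 20 control UMIs), F10 (14 KO-labelled and 7 control), F7 (2 KO-labelled and 4 control) and F3 (0 KO-labelled and 6 control) had too few UMIs to be called.

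Of a wider list of 45 pathway genes, 17 had at least 100 UMIs in EC-like cells, and 1 of these was lower and 0 higher by 1.5-fold, with a median of -0.22. The lower one was F5, the gene of the cofactor of factor Xa, at 45.7 CPM in the KO-labelled and 72.8 CPM in the control library, a log2 ratio of -0.67 (-0.94 to -0.41). Vwf, the gene of the factor that binds platelets to the wall, was within 1.5-fold at 619 CPM in the KO-labelled and 727 CPM in the control library. The fibrinogen genes Fga, Fgb and Fgg had 0 UMIs in the named classes of at least 100 cells, and plasminogen, Plg, had 1.

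Plat and Procr were not spread evenly over EC-like cells. Cells in which at least 3 of Ano1, Tmem171, Ch25h, Pla2r1 and Hbegf were detected, called the Ano1 set here, numbered 26 of 580 in the KO-labelled library (4.48%, 2.95% to 6.50%) and 43 of 478 in the control library (8.996%, 6.59% to 11.9%). These 5 genes come from the leaders of a cell state seen earlier in these data, which Procr and Plat lead too, so a higher level of Procr and Plat in the set is a description. The set's cells had a median of 14760 UMIs in the KO-labelled and 16930 UMIs in the control library. The other EC-like cells had 5765 UMIs in the KO-labelled and 5688 UMIs in the control library. With cells thinned to 2000 UMIs before the split, 4 of 476 KO-labelled and 2 of 392 control EC-like cells passed it. The part of depth in the size of the set was not tested. The 14 EC markers, all detected, summed to 5727 CPM in the KO-labelled set and 10050 CPM in the other KO-labelled EC-like cells, and to 6583 CPM in the control set and 10520 CPM in the other control ones. B-cell markers summed to 245 CPM in the KO-labelled set, with 9 of 9 detected, and to 41.7 CPM in the control set, with 2 of 9, and cell cycle markers to 89.9 CPM (5 of 5) in the KO-labelled and 14.3 CPM (4 of 5) in the control set. Their part in the ratios between the sets was not tested.

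Within the set Procr stood at 2382 CPM (2236 to 2536) in the KO-labelled library, against 298 CPM (281 to 316) in its other EC-like cells, a log2 ratio of 3.00 (2.87 to 3.12). In the control library Procr stood at 2551 CPM (2444 to 2661) in the set and 313 CPM (294 to 333) in the other cells, a log2 ratio of 3.03 (2.92 to 3.14). A Procr UMI was found in 26 of 26 KO-labelled and 43 of 43 control set cells. Single-cell levels in the set ran from 132 CPM through a median of 2302 to 15280 CPM in the KO-labelled and from 64.1 through 1536 to 12510 CPM in the control library. Plat was at 457 CPM (394 to 527) in the KO-labelled set and 185 CPM (171 to 199) in the other cells of that library, a log2 ratio of 1.30 (1.07 to 1.54). In the control library Plat was at 1012 CPM (946 to 1083) in the set and 182 CPM (167 to 197) in the other cells, a log2 ratio of 2.48 (2.32 to 2.63). The intervals of these 2 ratios do not overlap, but they cover counting error only and not the spread between cells. Plaur was also higher in the set, at 413 against 122 CPM in the KO-labelled library (1.76, 1.503 to 2.02) and 324 against 110.2 CPM in the control library (1.56, 1.32 to 1.79). Thbd was closer to even, at 571 against 402 CPM in the KO-labelled library (0.51, 0.30 to 0.70) and 625 against 386 CPM in the control library (0.69, 0.54 to 0.84). Plau rested on 12 UMIs in the KO-labelled set and 15 in the other cells, and on 15 UMIs in the control set and 5 in the other control cells. Tfpi was nearly level, with 21.9 against 18.1 CPM in the KO-labelled and 23.9 against 20.9 CPM in the control library, from 9 UMIs in the KO-labelled and 20 in the control set.

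**Figure D3:**
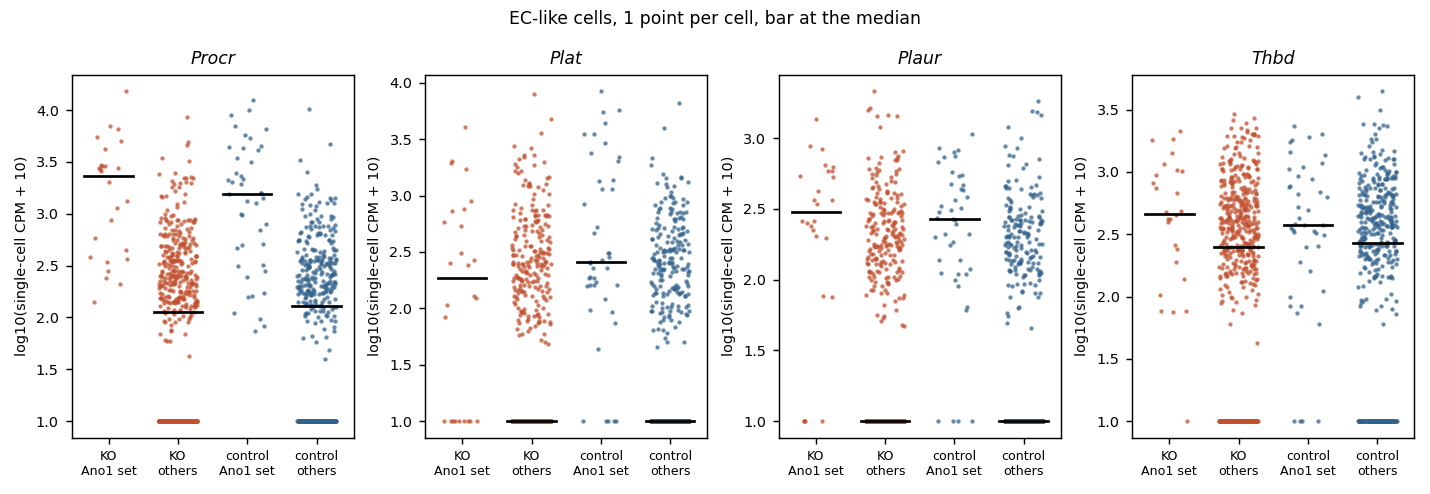
Level of Procr, Plat, Plaur and Thbd in each EC-like cell, as log10(single-cell CPM + 10), for the Ano1 set and the other EC-like cells of the KO-labelled and then of the control library; each point is a cell and each bar a median. Procr is above 0 in all 26 KO-labelled and 43 control set cells, while Plat runs from 0 to 4001 CPM in the KO-labelled set and from 0 to 8425 CPM in the control set.

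Of the 4 members with at least 100 UMIs, 3 were higher by 1.5-fold or more in the KO-labelled set and 4 in the control set. In both libraries 0 were lower. Procr and Plat are among these members and lead the state that gave the split genes, so the counts are a description only. Among all genes 16% were higher and 24.9% lower in the KO-labelled set, and 14% higher and 22.4% lower in the control set, so differences of this size were common between these cells. The pathway list went both ways, with 4 of 16 genes higher and 5 lower in each library. Anxa2, whose product binds plasminogen at the cell surface, was higher in the set by 1.56 on the log2 scale in the KO-labelled and 1.52 in the control library. Its partner S100a10 was higher by 0.91 in the KO-labelled and 1.10 in the control library, and Ptgis, the prostacyclin synthase gene, by 1.23 in the KO-labelled and 0.67 in the control library. Vwf was lower, at 168 against 667 CPM in the KO-labelled (-1.99) and 235 against 855 CPM in the control library (-1.86). Entpd1, whose product clears extracellular ATP and ADP, was lower too, at -0.90 in the KO-labelled and -1.29 in the control library. So was Pros1, the gene of the cofactor of activated protein C, at -0.93 in the KO-labelled and -0.66 in the control library.

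**Figure D4:**
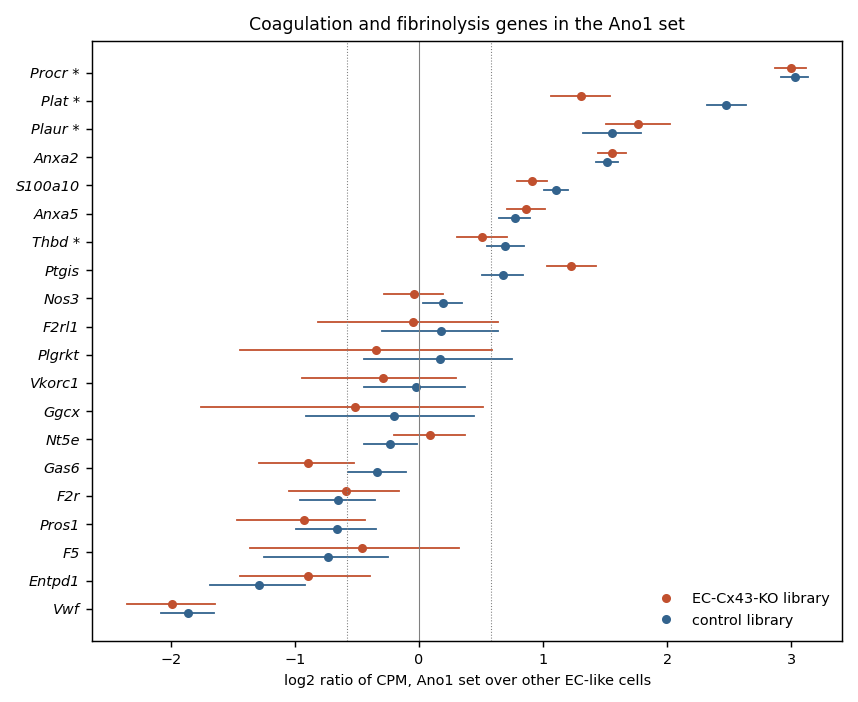
Log2 ratio of CPM in the Ano1 set over the other EC-like cells for the 20 members and pathway genes with at least 100 UMIs in both libraries, for the KO-labelled and the control library, with exact 95% intervals; asterisks mark the 4 members and dotted lines 1.5-fold. Procr is at 3.00 in the KO-labelled and 3.03 in the control library, Vwf at -1.99 (KO-labelled) and -1.86 (control), and Plat at 1.30 (KO-labelled) and 2.48 (control). The Plat intervals lie apart but cover counting error only and not the spread between cells.

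On the 2 sides of this split the ratios of Procr and Plat between libraries took different shapes. With all cells of a side summed, Procr was within 1.5-fold on both sides, at -0.10 (-0.21 to 0.01) inside the set and -0.07 (-0.19 to 0.06) outside it. The set held 9.64% of the EC-like UMIs and 46.0% of the Procr UMIs in the KO-labelled library, and 20.7% of the EC-like UMIs and 68.1% of the Procr UMIs in the control library. Summed outside the set, Plat had 185 CPM in the KO-labelled and 182 CPM in the control library, a log2 ratio of 0.02 (-0.14 to 0.18). Inside the set Plat was lower, at 457 CPM in KO-labelled and 1012 CPM in control cells, a log2 ratio of -1.15 (-1.39 to -0.92). It was the 1 of 4 members called there, where 6.79% of 2358 genes were lower and 3.9% higher by 1.5-fold. Outside the set 0 of 5 members were called, where 4.2% of 7838 genes differed in either direction. F5 was lower outside the set too, at 46.9 CPM in KO-labelled and 79.4 CPM in control cells, a log2 ratio of -0.76 (-1.04 to -0.48).

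**Figure D5:**
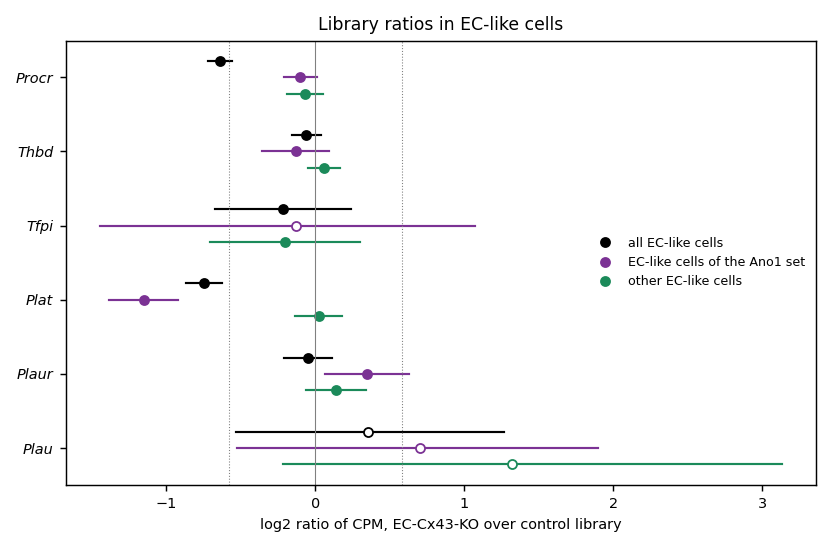
Log2 ratio of CPM in the KO-labelled over the control library for the members in all EC-like cells, in the Ano1 set and in the other EC-like cells, with exact 95% intervals; open points have under 100 UMIs and dotted lines mark 1.5-fold. Procr is at -0.64 in all EC-like cells but at -0.10 and -0.07 inside and outside the set, whereas Plat is at -1.15 inside and 0.02 outside it. Cells of both sexes are summed. With Y-linked and with Xist UMIs Procr in the set was at -1.83 and 0.49, from as few as 6 cells of a library. Plat outside the set was at 0.79 and -0.56 in such cells.

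Few cells carried the Plat counts of the set. In the KO-labelled set 17 of 26 cells had a Plat UMI, and 3 cells held 107 of its 188 UMIs. In the control set 38 of 43 cells had one, and 3 cells held 354 of 849 UMIs. Without those 3 cells of each library the log2 ratio between the sets was -1.47, and Plat in the set stood above the other EC-like cells by 0.37 in the KO-labelled and 1.86 in the control library. The libraries also mixed the sexes unequally. Counting Y-linked and Xist UMIs, 12 cells of the KO-labelled set carried Y-linked ones alone and 7 carried Xist alone, against 6 Y-linked and 24 Xist cells in the control set. Cells with both kinds or with neither were left out of this split. Split this way, the ratios between libraries were not the same in Y-linked and Xist cells. In the set Plat was at 449.7 CPM in KO-labelled and 1828 CPM in control cells with Y-linked UMIs, a log2 ratio of -2.02 (-2.42 to -1.64), and at 469 CPM in KO-labelled and 769 CPM in control cells with Xist UMIs, -0.71 (-1.12 to -0.33). Procr in the set was lower with Y-linked UMIs, at 1854 CPM in KO-labelled and 6600 CPM in control cells, -1.83 (-2.03 to -1.64), and higher with Xist UMIs, at 2756 CPM in KO-labelled and 1965 CPM in control cells, 0.49 (0.31 to 0.66). Outside the set, in 199 KO-labelled and 95 control Y-linked cells, Plat was higher at 193 CPM in KO-labelled and 111 CPM in control cells, 0.79 (0.47 to 1.13), and Procr was at 0.32 (0.08 to 0.56). In 150 KO-labelled and 196 control Xist cells outside the set Plat was lower at 149 CPM in KO-labelled and 219 CPM in control cells, -0.56 (-0.81 to -0.31), and Procr was at -0.54 (-0.73 to -0.35). In the cells assigned this way, the near-even sums of Procr inside and outside the set and of Plat outside it therefore combine ratios of opposite sign. Inside the set these ratios rest on as few as 6 cells of a library. There 3 cells held 325 of 981 KO-labelled Procr UMIs, and 3 cells held 779 of 2139 control ones. The part of the unequal sex mix was not tested. Over all EC-like cells the log2 ratio of Plat was -0.36 in Y-linked cells (211 KO-labelled, 101 control) and -0.97 in Xist cells (157 KO-labelled, 220 control). That of Procr was -0.97 in Y-linked and -0.63 in Xist cells. When every cell weighed the same, in a mean of single-cell CPM, Plat was at -0.38 and Procr at -0.27, both within 1.5-fold.

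Clustering the EC-like cells again, also without the 9 genes, gave a subcluster led by Ccnd1, Procr, Tmem171 and Ano1 with 50 KO-labelled and 42 control cells, of which 22 KO-labelled and 31 control cells were in the Ano1 set. Its median depth was 10040 UMIs in KO-labelled and 15860 UMIs in control cells. Plat stood at 549 CPM in its KO-labelled and 1174 CPM in its control cells, and Procr at 2266 CPM in KO-labelled and 3212 CPM in control cells. The subcluster led by the capillary gene Fabp4, with 43 KO-labelled and 7 control cells, held little of either, with Plat at 51.4 CPM in KO-labelled and 74.97 CPM in control cells and Procr at 33.05 CPM in KO-labelled and 24.99 CPM in control cells.

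By the number of split genes detected, from 0 to 5, Procr stood at 195, 234, 754, 1550, 4003 and 1241 CPM in KO-labelled cells and at 219, 223, 770, 1447, 3300 and 3194 CPM in control cells. The last step holds only 3 KO-labelled and 7 control cells. Cells just inside the limit, with 3 genes detected, had 417 CPM of Plat in the KO-labelled and 466 CPM in the control library, and cells just outside it, with 2, had 306 CPM in the KO-labelled and 279 CPM in the control library. Both libraries thus had more Procr from 2 detected genes upward, while the control library had its highest Plat, 1676 CPM, with 4.

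In cells in which the Cre is not designed to act, the members mostly stayed within 1.5-fold, as did most genes with as many UMIs. In fibroblast-like cells 0 of 7 members with at least 100 UMIs differed by that size, where 4.05% of 11181 genes did in either direction. Thbd was at 490.4 CPM in the KO-labelled and 585 CPM in the control library, a log2 ratio of -0.26 (-0.30 to -0.21), F3 was at -0.32 (-0.45 to -0.19) and Plat at -0.21 (-0.26 to -0.17). Procr was at 159 CPM in KO-labelled and 128 CPM in control cells, 0.32 (0.23 to 0.41), opposite in sign to its ratio in EC-like cells. The fibroblast-like clusters did not all share that direction. Procr was higher in the KO-labelled cells of the Ptx3 and Ccl11 cluster, at 0.32 (0.22 to 0.42). The Tnfrsf11b, Esm1 and Inhba cluster was at 0.26 (0.01 to 0.51) and the Smoc2 and Dio2 cluster at 0.39 (-0.09 to 0.88). Procr was lower only in the cluster led by Sdk1 and Bnc2, at -0.81 (-1.24 to -0.39). There it stood at 122 CPM in KO-labelled and 214 CPM in control cells, from 72 KO-labelled and 137 control UMIs. In Xist fibroblast-like cells it was at 0.01 (-0.13 to 0.15), against 0.35 (0.21 to 0.48) in Y-linked ones. The median of the 7 was -0.14, against -0.08 over all genes.

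In SMC-like cells 0 of 4 members were called, where 3.24% of 8466 genes were. F3 came nearest there, at 16.8 CPM in the KO-labelled and 24.9 CPM in the control library, a log2 ratio of -0.57 (-0.99 to -0.15). Procr had 50 KO-labelled and 12 control UMIs in SMC-like cells, too few to be called. It stood there at 9.32 CPM in KO-labelled and 2.93 CPM in control cells. The free RNA estimate from the median share was 6.71 CPM in the KO-labelled and 7.95 CPM in the control library. EC markers stood above that share in SMC-like cells, at 22.3% of the KO-labelled and 24.3% of the control profile. In neutrophil-like cells 0 of 3 members were called, where 10.7% of 3866 genes were, and Plaur was at 889 CPM in the KO-labelled and 719 CPM in the control library, 0.31 (0.21 to 0.41). In dendritic-like cells 0 of 2 were called, where 17.2% of 4444 genes were, and F10 was at 0.30 (0.01 to 0.60). Plaur alone had 100 UMIs in T/NK-like and B-cell-like cells and was within 1.5-fold in both, where 8.75% and 7.1% of genes were called. In the Fabp5 and Ppbp cluster 0 of 4 were called, where 4.34% of 7326 genes were.

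In monocyte/macrophage-like cells 1 of 8 members was lower and 0 were higher, where 1.5% of 9528 genes were lower and 4.36% higher. The lower one was Plat, with 50 UMIs in KO-labelled and 68 UMIs in control cells, -0.75 (-1.31 to -0.21), at levels below the free RNA estimate. F10 was at a log2 ratio of -0.11 (-0.18 to -0.04), F7 at -0.11 (-0.30 to 0.07) and Plaur at 0.17 (0.11 to 0.23). From the pathway list Gas6, the gene of a vitamin K-dependent ligand of TAM receptors, was higher at 46.8 CPM in KO-labelled and 28.4 CPM in control cells, 0.72 (0.52 to 0.92). Serpinb2, which encodes an inhibitor of urokinase, was higher at 35.7 CPM in KO-labelled and 21.1 CPM in control cells, 0.76 (0.53 to 1.00). The clusters of this class were unequal between libraries, with 250 KO-labelled and 90 control cells in the Lyve1 and Cd163 cluster and 232 KO-labelled and 16 control cells in the cluster led by Cxcl10 and Rsad2, and their part in these ratios was not tested.

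Over all kept cells 0 of 9 members differed by 1.5-fold, where 4.42% of 14246 genes did. F7 was furthest from even at 20.4 CPM in the KO-labelled and 27.2 CPM in the control library, -0.42 (-0.54 to -0.30), beside 399 KO-labelled and 650 control cells in the Fabp5 and Ppbp cluster that holds the most F7. Plat was at 167 CPM in KO-labelled and 212 CPM in control cells, -0.34 (-0.39 to -0.30), and Procr at 99.9 CPM in KO-labelled and 118 CPM in control cells, -0.24 (-0.30 to -0.18). The median of the 9 was -0.20, against -0.06 over all genes.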

How the data were processed

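Gene by cell UMI counts were deposited by the authors as filtered matrices, made with Cell Ranger 8.0.1 on mm10 per the file headers and the submitters' processing notes, which also name STAR without a version. Members and lists were chosen with earlier results of these data known. The clustering, thresholds, main comparisons and most alternatives were set from the labels and those earlier results. 11 alternatives were chosen after seeing the data: the largest EC-like cluster (for both kinds of comparison), leaving out the Fabp4-led cluster, leaving out the 3 cells with most UMIs of a gene (for EC-like cells, within the Ano1 set, and for set over others), Y-linked and Xist cells on each side of the Ano1 split, and adding the Fabp5 and Ppbp cluster to the monocyte/macrophage-like class.

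Cells with under 300 genes or over 15% mitochondrial UMIs were left out. Simulated doublets gave each cell a score, and the highest were removed at a rate of 0.8% per 1000 cells, 476 in the KO-labelled and 363 in the control library. The 9 genes and Gja1 were left out of the 2000 variable genes, and cells were clustered on 30 principal components and 20 neighbours with leidenalg 0.10.2 at resolution 1.0 (EC-like subclusters at 0.6). A cluster was named from cell type markers where at least 3 were detected in 10% of its cells and its 10 leading genes did not go against the name; 806 KO-labelled and 654 control cells stayed in other unnamed clusters. Shares of cells were compared after thinning each cell to 1000 UMIs.

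No test was made, with 1 library per genotype. Levels are summed UMIs as CPM with exact Poisson intervals, ratios have exact conditional binomial intervals and shares Clopper-Pearson ones. A gene was called at 1.5-fold (0.58 on the log2 scale) with at least 100 UMIs in the cells compared. Genes named beside the members were the 3 of highest r and pathway genes past 1.5-fold or high in a class. One gene of the pathway list is not reported here and was left out of the list's counts. Methods were tested on simulated data. The tools were scikit-learn 1.9.0 and igraph 0.11.9 for clustering, SciPy 1.17.1 for intervals, matplotlib 3.10.9 for plots, and pandas 2.3.3 and NumPy 2.4.6 under Python 3.11.15.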

Additional observations from a re-analysis of the deposited data

Results flagged for a closer look

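Procr was lower in KO-labelled EC-like cells, at a log2 ratio of -0.64, and higher in KO-labelled fibroblast-like cells, at 0.32. This is a difference of -0.95 between classes in opposite directions. In EC-like cells the Procr ratio was within 1.5-fold on each side of the Ano1 split, with all cells of a side summed. It was within 1.5-fold too as a mean of single-cell CPM over all EC-like cells. Of the fibroblast-like clusters only that led by Sdk1 and Bnc2 had Procr lower in its KO-labelled cells, at -0.81. Procr was near even in Xist fibroblast-like cells, at 0.012. F10 was lower in KO-labelled monocyte/macrophage-like cells, at -0.11, and higher in KO-labelled dendritic-like cells, at 0.30, a difference of -0.41. Both F10 ratios were within 1.5-fold. The median over all genes was -0.07 in monocyte/macrophage-like and -0.15 in dendritic-like cells. With 1 library per genotype neither difference was tested.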

How the results depend on the processing

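No paired analysis was possible because each genotype has 1 library, and no replicate could be left out for the same reason. In EC-like cells 2 members were lower in the KO-labelled library, Plat at -0.75 and Procr at -0.64 on the log2 scale. As means of single-cell CPM Plat was at -0.38, Procr at -0.27 and 0 were lower. In Y-linked cells Plat was at -0.36, Procr at -0.97 and 1 was lower, and in Xist cells Plat was at -0.97. Outside the Ano1 set Plat turned to 0.023, Procr was at -0.068 and 0 were lower. Inside it Plat was at -1.15, Procr at -0.10 and 1 was lower, and without the 3 cells with most UMIs of the gene Plat was at -1.47, Procr at -0.052 and 1 was lower. In Y-linked cells of the set Plat was at -2.02 and Procr at -1.83, and in its Xist cells Procr turned to 0.49, with 1 member higher and 1 lower. Outside the set Plat turned to 0.79 and Procr to 0.32 in Y-linked cells, with 1 higher and 0 lower, and in Xist cells Plat was at -0.56 and Procr at -0.54, with 0 lower. Over all EC-like cells Procr was at -0.485 without the 3 cells of each library with most UMIs of the gene. It was at -0.56 without the Fabp4-led cluster, with 1 member lower in each of these settings. Also 1 was lower under median-of-ratios scaling, in the largest EC-like cluster, and without the leukocyte-led and capillary-led subclusters, and 1 was higher at 20 UMIs. The cause of these shifts was not tested.

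Elsewhere the counts of called members moved by 1 at most. In SMC-like cells 1 was lower, in place of 0, with doublets kept, with free RNA subtracted and in Y-linked cells, and 1 was higher at 20 UMIs and in Xist cells. In fibroblast-like cells 1 was lower at 20 UMIs and 1 higher in Y-linked cells. In monocyte/macrophage-like cells 0 were lower, in place of 1, with doublets kept, at resolution 0.5, with free RNA subtracted, and in Y-linked and in Xist cells, 2 were lower at 20 UMIs, and 1 was higher in Xist cells. Plat there turned to 0.34 in Y-linked cells, and with free RNA subtracted Plat and Procr left no counts for a ratio. At 20 UMIs 1 neutrophil-like member was higher and 1 lower, and 1 dendritic-like member was lower.

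For the Ano1 set over other EC-like cells, Procr (3.00) in the KO-labelled library was at 3.32 as a mean of single-cell CPM, 2.73 in Y-linked and 3.39 in Xist cells, 2.735 with 2 of the 5 genes, 2.57 without the 3 cells with most UMIs and 2.46 with cells thinned to 2000 UMIs. Plat (1.30) was at 1.66 in Xist cells and 0.37 without those 3 cells. After thinning it turned to -0.75 (-6.07 to 1.74), from 1 UMI in the set, and 1 member was lower in place of 0. In the control library Procr (3.03) was at 3.27 as a mean of single-cell CPM, 4.88 in Y-linked and 2.36 in Xist cells and 2.55 without the 3 cells. Plat (2.48) was at 4.04 in Y-linked and 1.81 in Xist cells, 2.16 with 2 and 2.71 with 4 of the 5 genes, 1.86 without the 3 cells and 2.29 after thinning. The thinned split left 4 KO-labelled and 2 control cells in the set. Under the alternatives, 313 of the Plat and Procr values in EC-like cells and of the counts stayed within the counting interval or the range allowed for a count. Another 68 moved outside it and 5 turned in sign. Of the remaining member values 347 stayed, 73 moved and 1 turned in sign. A turn in sign was counted only for values past 1.5-fold in the main setting. Sign changes of smaller values were counted as stayed or moved.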
